A study of Mus musculus with 4 samples.

Results

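Genes of glycolysis, glucose and lactate transport, glycogen metabolism and the pentose phosphate pathway were compared in gonadal white adipose tissue (WAT), FSP27-deficient against wild-type. The 35 genes encode the enzymes and carriers of these pathways, and each was read from the probe sets that the array's annotation gives to its symbol alone. Of the 35 genes, 31 had such a probe set, 63 probe sets in all, against 12394 named genes and 22690 probe sets on the array. Gpi1, Eno1, Pfkfb1 and G6pdx had no probe set of their own symbol and were not analysed here. A test was run where the signal averaged 100 or more across the 4 arrays, which held for 29 of the 31 genes and for 8523 of all 12394. Pgam2 and Pygm, which encode the muscle isoforms of phosphoglycerate mutase and glycogen phosphorylase, lay below that signal and were not tested.

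The FSP27-deficient group was RNA from Fsp27 knockout mice and the other group RNA from wild-type mice, all of them C57BL/6J males aged 3 months with no other treatment given in the labels. For each genotype RNA from the gonadal WAT of 5 mice was combined into 1 pool, and each pool was hybridised to 2 Affymetrix arrays. The 2 arrays of a genotype therefore show technical spread only, and nothing of how mice vary. An exact permutation test of 2 against 2 arrays cannot give a p below 0.333. Cidec, which encodes FSP27, gave 8564 and 8949 in FSP27-deficient WAT, against 20491 and 18255 in wild-type WAT, 2.21-fold lower. The sources used here do not say whether its probe set lies in the deleted part of the gene.

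Glycolysis splits glucose into pyruvate in the cytosol. Phosphofructokinase is a main point of control, and lactate dehydrogenase turns pyruvate into lactate, which leaves the cell through monocarboxylate carriers. Glucose 6-phosphate also feeds glycogen, a small store in fat cells, and the pentose phosphate pathway, which supplies NADPH for fatty acid synthesis. In white fat, insulin drives glucose uptake by moving the carrier GLUT4 to the cell surface, and the glucose taken up largely becomes lactate or the glycerol backbone and fatty acids of triglyceride.

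In FSP27-deficient WAT 6 of 13 glycolysis genes tested, the gene for the PFKFB3 regulator and 2 of 3 genes of lactate production and transport were called higher, against 1 of 5 glycogen genes, 1 of 3 pentose phosphate genes and 0 of 4 glucose carriers. Fold changes were tested on log2(signal + 16) with limma, which fits a spread that varies with the signal, with Benjamini-Hochberg adjustment over all 8523 genes and a threshold of 0.05. The 11 genes that passed were all higher: Pfkl, Aldoa, Tpi1, Pgk1, Pgam1, Pkm, Pfkfb3, Ldha, Slc16a1, Gys1 and Taldo1. They made up 11 of 29 genes, or 37.9%, against 5.78% of all genes tested that were called higher. No gene of the 29 was called lower (0 of 29, with 17 of the 29 at an unadjusted p under 0.05 in either direction), against 6.51% of all genes tested. The median log2 fold change was 0.34 over the 29 genes and -0.08 over all genes tested, and 20 of the 29 values were above 0. The 11 calls need this dependence of spread on signal. With a single spread for all signals limma called 1 of all 8523 genes higher and 0 lower. It then called 0 of the 29 genes, of 14 with an unadjusted p under 0.05.

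Counted by the separation of the arrays, without a test, 18 of 29 genes (62.1%) had both FSP27-deficient arrays above both wild-type arrays, against 22.7% of all genes tested. Both FSP27-deficient arrays lay below both wild-type arrays for 6 genes (20.7%), against 31.4% of all genes tested. The fold criterion, taken from the study's methods, asked for mean signals that differ at least 1.41-fold with both duplicates on the same side. It took in 12 genes as higher (41.4%, against 14.4% of all genes tested), the 11 called genes and Slc2a4. Hk1 and Slc2a3 passed it as lower (6.9%, against 20.6% of all genes tested).

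Markers of other cell types moved with these results. For their counts, 5.78% of all genes tested were called higher and 6.51% lower, and 22.7% lay apart as higher and 31.4% as lower. Summed over 8 brown or beige adipocyte markers, the signal came to 20468 and 24867 in FSP27-deficient WAT, against 1489 and 1102 in wild-type WAT, with 5 of 6 tested markers called higher. Cox8b alone gave 13491 and 19539 against 451 and 374, most of the FSP27-deficient sums. Ppargc1a was tested and not called (adjusted p = 0.78). Ucp1 gave 157 and 31.3 against 18.9 and 12.9, too low for a test. Macrophage markers summed to 7449 and 7606 against 21215 and 19144, with 7 of 10 tested called lower, and fibroblast markers to 26901 and 31229 against 50817 and 49170.3, with 5 of 7 called lower. Mesothelial markers summed to 1739 and 1258 against 3917 and 4052, with 3 of 5 tested called lower. Endothelial markers summed to 5254 and 5583 against 6769 and 7683, with 5 of 8 apart as lower and 1, Pecam1, called lower. Adipocyte markers summed to 178295 and 191642 against 161361 and 179672, with 2 of 8 tested called lower, Cidec and Lep, and 0 called higher by limma (5 of 8 apart as higher). Of 4 granulocyte genes tested 1, Prtn3, was called lower, on wild-type signals of 207 and 750.0. Its log2 fold change of -3.61 was -2.72 without wild-type replicate 2, where the call was lost. The other 3 granulocyte genes tested had log2 fold changes above 0, and the median of the 4 was 0.40. Among them Mpo lay apart as higher, with 110.2 and 231 against 15.3 and 94.5, but was not called. By limma 0 of 2 lymphocyte, 0 of 1 erythroid and 0 of 2 epididymal genes tested were called. The part of these shifts in the glycolytic, glycogen and carrier signals was not tested. In RNA from whole tissue, fewer cells of a type and less RNA per cell cannot be told apart.

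**Figure D1:**
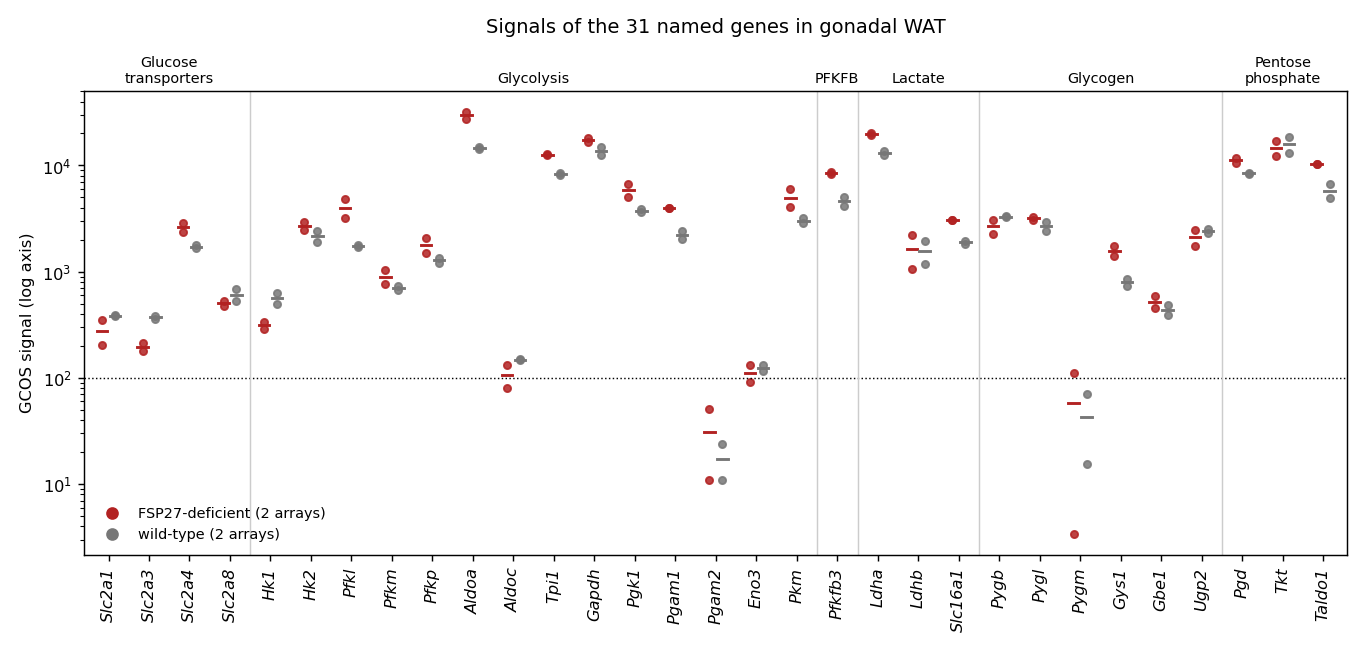
Log axis of GCOS signal for the 31 named genes, ordered by pathway, with each array as a point and the mean of 2 arrays as a bar, FSP27-deficient left of wild-type; the dotted line marks the signal of 100 needed for a test. On the brightest probe set of each gene, the arrays of the genotypes lay apart for Pfkl, Aldoa, Tpi1, Ldha, Pfkfb3 and Taldo1. They overlapped for Ldhb, Tkt, Gbe1 and Ugp2.

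**Figure D2:**
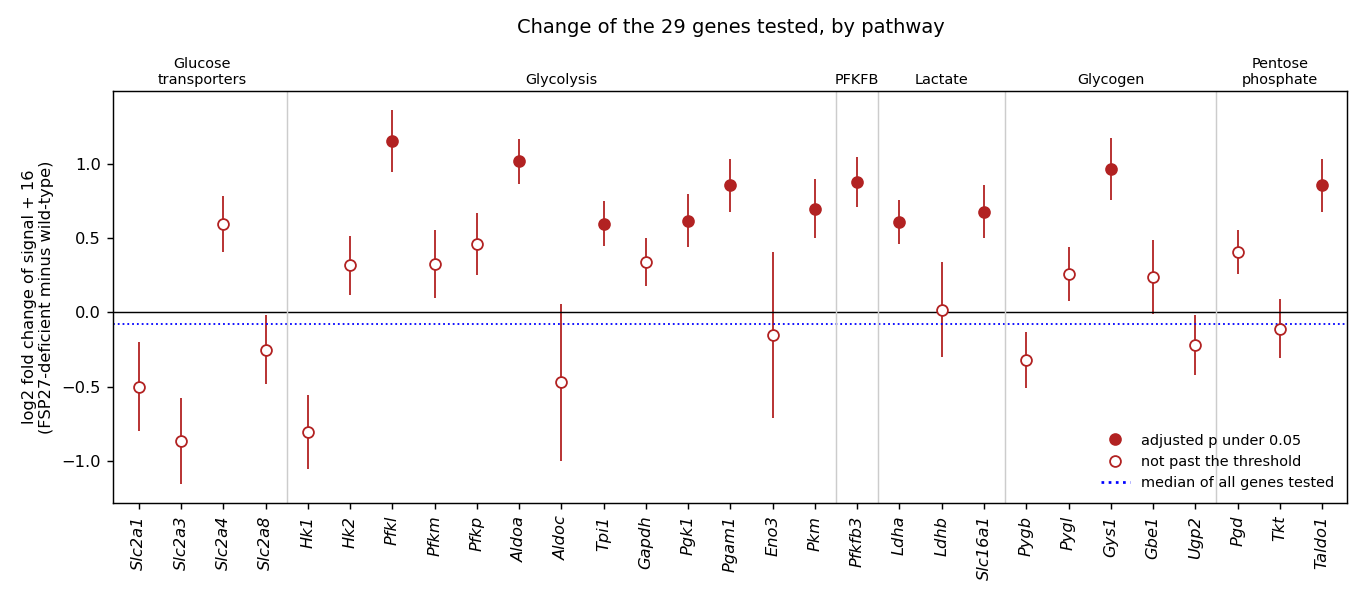
log2 fold change with its standard error (2 arrays a genotype, limma) for the 29 genes tested, filled where the adjusted p was under 0.05; the dotted line is the median of all genes tested, -0.08. The 11 filled points all lie above 0, between 0.60 and 1.16, and 3 of the 4 glucose transporters lie below 0.

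In the first steps of glycolysis, 1 of the 3 phosphofructokinase genes was called higher and neither hexokinase gene was called. Pfkl, which encodes the liver-type phosphofructokinase, gave 4827 and 3175 in FSP27-deficient WAT, against 1773 and 1724 in wild-type WAT. Both FSP27-deficient arrays were far above the wild-type ones, although they differed between themselves, and the ratio of the means was 2.29 (log2 fold change 1.16, standard error 0.21, adjusted p = 0.004). A second Pfkl probe set gave 2155 and 1573 against 928 and 786. Pfkl remained called without any 1 of the arrays.

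The other phosphofructokinase genes had smaller ratios. Pfkm, the muscle type, gave 761 and 1028 in FSP27-deficient WAT, against 737 and 667 in wild-type WAT, with an adjusted p of 0.41. Pfkp, the platelet type, gave 2086 and 1508, against 1355 and 1218, with a ratio of 1.4 and an adjusted p of 0.2. The arrays did not overlap for either gene, but neither difference was called.

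Hexokinases trap glucose in the cell by phosphorylating it, and hexokinase 2 is the form typical of insulin-sensitive tissues. Hk1 gave 335 and 290.1 in FSP27-deficient WAT, against 634 and 492 in wild-type WAT, 1.8-fold lower. It missed the threshold (log2 fold change -0.81, standard error 0.25, adjusted p = 0.056). Its second probe set gave 106 and 178 against 245 and 253, 1.76-fold lower and also apart. Hk2 gave 2471 and 2913 in FSP27-deficient WAT, against 1897 and 2432 in wild-type WAT (adjusted p = 0.35). The lowest FSP27-deficient value of Hk2 was only just above the highest wild-type value.

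Aldoa and Tpi1, whose enzymes cleave the sugar phosphate and interconvert its triose products, were called higher. Aldoa, the aldolase of muscle and most other tissues, gave 31856 and 27330.3 in FSP27-deficient WAT, against 14838 and 14188 in wild-type WAT. The ratio was 2.04 (log2 fold change 1.02, standard error 0.15, adjusted p = 0.0011), and the call held without any 1 of the arrays. All 4 Aldoa probe sets were called when each was tested on its own, with log2 fold changes of 0.93 to 1.32. All 4 are of the kind that can also bind related transcripts, and no other probe set is annotated with the symbol Aldoa alone.

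Tpi1, triosephosphate isomerase, gave 12461 and 12727 in FSP27-deficient WAT, against 8157 and 8505 in wild-type WAT, a ratio of 1.51 (log2 fold change 0.60, standard error 0.15, adjusted p = 0.023). Its 3 probe sets were each called, at log2 fold changes of 0.60 to 0.72. Without wild-type replicate 1 or 2 the adjusted p of Tpi1 was 0.21 or 0.14. Aldoc, the brain aldolase, was near the signal of 100 needed for a test, at 80.5 and 132 in FSP27-deficient WAT, against 147 and 151 in wild-type WAT (adjusted p = 0.65).

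From glyceraldehyde 3-phosphate down to pyruvate 5 genes were tested, and 3 of these were called. Gapdh, glyceraldehyde-3-phosphate dehydrogenase, is read from the array's control probe sets here and gave 18230.1 and 16607 in FSP27-deficient WAT, against 14839.6 and 12665 in wild-type WAT. Its arrays lay apart, with a ratio of 1.27, but the difference was not called (adjusted p = 0.19).

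Pgk1, phosphoglycerate kinase, gave 6653 and 5009 in FSP27-deficient WAT, against 3861 and 3650.3 in wild-type WAT, a ratio of 1.55 (log2 fold change 0.62, standard error 0.18, adjusted p = 0.046). Its other probe sets gave 5467 and 5696 against 2914 and 3077, and 749 and 812 against 319 and 396. These 2 dimmer probe sets showed the larger log2 fold changes, 0.89 and 1.10, and each was called on its own. The adjusted p of the brightest one was 0.17 without FSP27-deficient replicate 1, 0.18 without wild-type replicate 1 and 0.25 without wild-type replicate 2.

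Pgam1, phosphoglycerate mutase, had nearly equal FSP27-deficient arrays at 4003 and 4009.9, against 2410.2 and 2012 on the wild-type arrays. The ratio was 1.81 (log2 fold change 0.86, standard error 0.18, adjusted p = 0.0082, or 0.11 with wild-type replicate 2 left out). Pkm, pyruvate kinase, gave 5957 and 4028 in FSP27-deficient WAT, against 3169.7 and 2845 in wild-type WAT. The ratio was 1.66 (log2 fold change 0.70, standard error 0.20, adjusted p = 0.042). Which splice forms of Pkm its probe set reads is not given in the sources. The Pkm call was lost without FSP27-deficient replicate 1, wild-type replicate 1 or wild-type replicate 2, with adjusted p = 0.18, 0.13 and 0.23. Eno3, the muscle enolase, gave 91.1 and 131 in FSP27-deficient WAT, against 115 and 132 in wild-type WAT, and the arrays overlapped (adjusted p = 0.91).

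Pfkfb3 encodes a bifunctional enzyme that makes fructose 2,6-bisphosphate, the strongest activator of phosphofructokinase. It gave 8365 and 8606 in FSP27-deficient WAT, against 4197 and 5044 in wild-type WAT. The ratio was 1.84 (log2 fold change 0.88, standard error 0.17, adjusted p = 0.0048, or 0.087 with wild-type replicate 1 left out). A second probe set gave 2916 and 2331 against 896 and 1102, a larger difference that was also called (log2 fold change 1.38, adjusted p = 0.0012 over all probe sets).

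Lactate production and transport were represented by 3 genes. Ldha, the subunit of lactate dehydrogenase that prevails in glycolytic tissues, gave 19516 and 20387 in FSP27-deficient WAT, against 12556 and 13537 in wild-type WAT. The groups lay well apart, at a ratio of 1.53 (log2 fold change 0.61, standard error 0.15, adjusted p = 0.018). Slc16a1, the monocarboxylate carrier MCT1 that moves lactate and pyruvate with a proton, gave 3082 and 3035, against 1839 and 1964. The duplicates of this gene were close together in both genotypes, and the ratio was 1.61 (log2 fold change 0.68, standard error 0.18, adjusted p = 0.024). Neither call held without wild-type replicate 1 (adjusted p = 0.2 for each) or wild-type replicate 2 (0.11 for Ldha and 0.12 for Slc16a1).

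Ldhb, the heart-type subunit, had duplicates that disagreed, with 1060.1 and 2223 in FSP27-deficient WAT, against 1945 and 1179 in wild-type WAT. The groups overlapped, and the log2 fold change was 0.02 with a standard error of 0.32 (adjusted p = 0.98). The other 3 Ldhb probe sets gave log2 fold changes of 0.48 to 0.68, none of them called. Leaving out FSP27-deficient replicate 2 or wild-type replicate 2 turned the brightest probe set to -0.51 or -0.34.

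The promoters of these genes are shown to give the letters around the starts of called genes, and those with ACGTG at 2 or more places in a window were chosen. This held for 4 of the 11 called genes, and also for 3 of 16 genes tested and not called that had a window, Hk1, Hk2 and Pfkm. The motif ACGTG is the core of the site bound by hypoxia-inducible factors, and CACGTG is the E-box bound by MYC, USF and the carbohydrate response factors. RefSeq start sites on GRCm38.p6 gave 50 windows for 33 of the 35 genes, each of 250 bases before to 50 after a start, and Slc2a3 and Slc2a4 had none. Both strands were searched, and each CACGTG counts as an ACGTG too. The shorter motif was found in 21 of 50 windows (42%), against 19.6% of the 32851 windows of all genes, and CACGTG in 8% against 7.15%. GGGCGG, the letters of the GC box bound by SP1, was found in 56% against 35.7%. AGGTCA, the nuclear receptor half-site, was found in 20.0% against 16.3%, and TCAAGGTCA, the longer form bound by estrogen-related receptors, in 0 of 50 windows against 0.423%. A gene with several starts counts more than once in these shares, and starts close together share letters.

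ACGTG stood in a window of 7 of the 11 called genes and of 9 of the 16 genes that were tested, not called and had a window. A match describes letters only and says nothing of binding in this tissue. The windows with 2 or more ACGTG matches among the called genes lay at chr7:46845554-46845853 (Ldha), chr3:104638414-104638713 (Slc16a1), chrX:106186850-106187149 (Pgk1) and chr9:59656977-59657276 (Pkm), all on the plus strand. They are given 5′ to 3′ with ACGTG or its reverse complement CACGT in capitals.
Ldha: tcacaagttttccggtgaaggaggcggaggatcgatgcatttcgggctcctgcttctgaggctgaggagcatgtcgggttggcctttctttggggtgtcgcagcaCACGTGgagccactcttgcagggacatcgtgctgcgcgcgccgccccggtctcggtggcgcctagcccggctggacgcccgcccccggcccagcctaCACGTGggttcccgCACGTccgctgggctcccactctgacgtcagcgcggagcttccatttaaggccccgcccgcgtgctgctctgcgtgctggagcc
Slc16a1: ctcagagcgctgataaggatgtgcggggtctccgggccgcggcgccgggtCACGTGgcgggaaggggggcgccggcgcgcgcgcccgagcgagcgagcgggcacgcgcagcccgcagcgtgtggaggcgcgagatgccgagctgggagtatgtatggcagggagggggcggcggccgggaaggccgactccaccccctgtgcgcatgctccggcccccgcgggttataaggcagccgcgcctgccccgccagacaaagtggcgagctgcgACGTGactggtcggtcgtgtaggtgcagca
Pgk1: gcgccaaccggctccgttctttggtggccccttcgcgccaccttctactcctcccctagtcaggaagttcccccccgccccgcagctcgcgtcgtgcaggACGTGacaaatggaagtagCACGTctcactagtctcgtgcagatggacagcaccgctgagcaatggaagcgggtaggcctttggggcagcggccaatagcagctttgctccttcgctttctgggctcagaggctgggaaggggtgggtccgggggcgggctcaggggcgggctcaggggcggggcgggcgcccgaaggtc
Pkm: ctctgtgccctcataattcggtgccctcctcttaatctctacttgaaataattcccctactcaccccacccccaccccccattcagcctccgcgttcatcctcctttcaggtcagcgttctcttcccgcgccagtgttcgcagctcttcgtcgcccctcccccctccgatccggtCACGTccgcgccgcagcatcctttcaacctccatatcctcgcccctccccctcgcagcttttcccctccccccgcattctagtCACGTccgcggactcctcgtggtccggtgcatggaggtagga
Ldha has 3 such places, 2 of them E-boxes, and its signal was 1.53-fold higher. Slc16a1 has 1 E-box and 1 further ACGTG near its start, with a signal 1.61-fold higher. Pgk1 and Pkm have 2 places each and no E-box, with signals 1.55-fold and 1.66-fold higher. Pfkl, with the highest ratio of the 11 genes at 2.29, had no ACGTG in its windows, while a window of Aldoa, at 2.04, did.

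Of the 4 glucose carriers 1 had a higher and 3 had lower signals, and none was called. Slc2a4, the insulin-regulated carrier GLUT4, gave 2357 and 2886 in FSP27-deficient WAT, against 1655 and 1766 in wild-type WAT. The arrays lay apart at a ratio of 1.53, but the difference missed the threshold (log2 fold change 0.60, standard error 0.19, adjusted p = 0.056). Its second probe set gave 1586 and 2149 against 1264 and 1439. Tpi1, with the same log2 fold change and a smaller standard error, was called.

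The carriers of basal uptake had lower signals on their brightest probe sets, with probe sets that disagreed. Slc2a1, GLUT1, gave 351 and 205 in FSP27-deficient WAT, against 391 and 379 in wild-type WAT (log2 fold change -0.50, adjusted p = 0.35). The other Slc2a1 probe sets gave log2 fold changes of 0.15 and -0.05. Slc2a3, GLUT3, gave 213 and 180.4 against 383 and 359, 1.89-fold lower (log2 fold change -0.87, adjusted p = 0.076). This Slc2a3 probe set is of a kind that can bind several transcripts, and the next brightest one gave 193 and 154 against 143 and 135, which is higher. Slc2a8, an intracellular carrier, gave 477 and 528 against 680.4 and 531, and the groups almost touched (adjusted p = 0.56). The median log2 fold change of the 4 carriers was -0.37, and it was 0.05 with every probe set on its own.

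**Figure D3:**
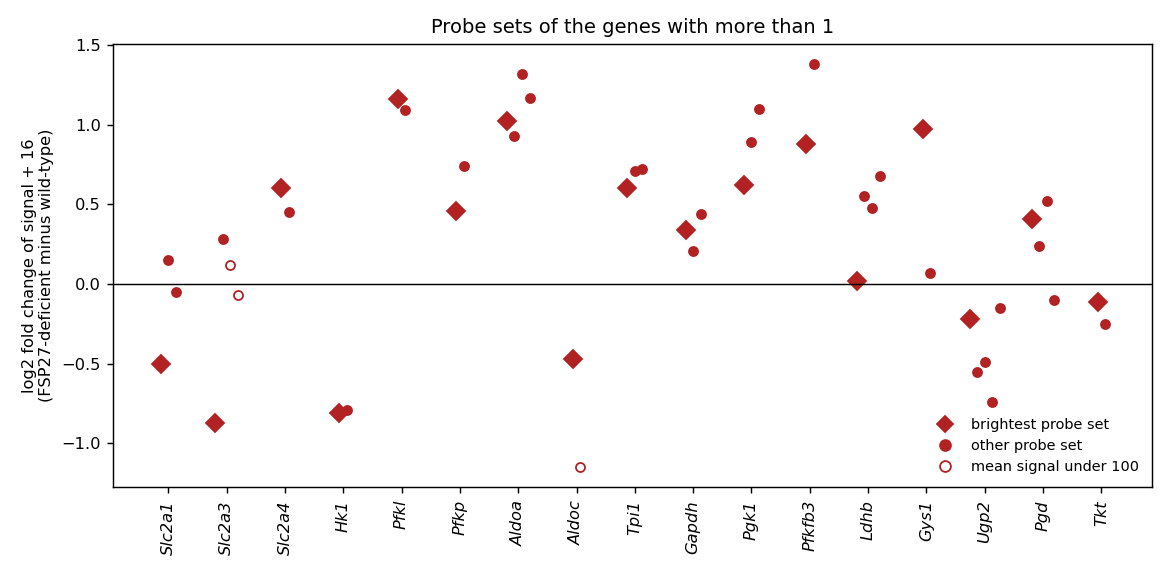
log2 fold change (FSP27-deficient minus wild-type, signal + 16) of every probe set of the 17 genes with more than 1, with a diamond for the brightest one and an open circle where the mean signal was under 100. All probe sets of 14 genes lie on the same side of 0, and those of Slc2a1, Slc2a3 and Pgd lie on both sides.

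Of the 31 genes, 17 had more than 1 probe set, and for 14 of these all probe sets had the same sign. Tested one by one over all probe sets, 19 of 58 were called, all of them higher. Of all 13225 probe sets tested, 669 were called higher and 739 lower. Probe sets of 1 gene are not separate results, and the 19 include 4 of Aldoa and 3 of Tpi1. Ugp2, UDP-glucose pyrophosphorylase, had 5 probe sets with log2 fold changes of -0.74 to -0.15, all below 0 and none called. The 3 genes with both signs were Slc2a1, Slc2a3 and Pgd.

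Among the glycogen genes the synthase gene Gys1 was called higher and no phosphorylase gene was called. Gys1, the synthase of muscle and most other tissues, gave 1394 and 1764 in FSP27-deficient WAT, against 736 and 854 in wild-type WAT. The ratio was 1.99 (log2 fold change 0.97, standard error 0.21, adjusted p = 0.01, or 0.11 with wild-type replicate 1 left out). A dimmer Gys1 probe set gave 313 and 640.3 against 547 and 330.3, and its groups overlapped (adjusted p = 0.93). With the mean of both probe sets the adjusted p was 0.054. Gbe1, the branching enzyme, gave 588 and 458 against 486 and 390.0, with overlapping arrays. The brightest Ugp2 probe set gave 1757 and 2444 against 2319 and 2518 and also overlapped. The next brightest gave 1580.1 and 1760.3 against 2595 and 2309, apart and 1.47-fold lower (adjusted p = 0.087 over all probe sets). Of its dimmer probe sets, those 1.41-fold and 1.68-fold lower were apart too, and the dimmest overlapped.

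The phosphorylases release glucose 1-phosphate from glycogen. Pygb, the brain type, gave 2274 and 3086 in FSP27-deficient WAT, against 3349 and 3266 in wild-type WAT (log2 fold change -0.32, adjusted p = 0.34). Pygl, the liver type, gave 3091 and 3294 against 2926 and 2417 (log2 fold change 0.26, adjusted p = 0.41). Pygm gave 112 and 3.4 against 15.3 and 71.1, and its mean was too low for a test. The median log2 fold change of the 5 glycogen genes tested was 0.24, and it was -0.18 with every probe set on its own.

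The partners of these enzymes in glycogen metabolism showed 4 further genes that were called higher. Of 17 such partners 14 were named here and 13 tested, with 4 called higher, 0 lower and a median log2 fold change of 0.17. Over all genes tested 5.78% were called higher and 6.51% lower, and the median was -0.08. Gys2, known as the liver synthase, gave 1402 and 1103 in FSP27-deficient WAT, against 437 and 389 in wild-type WAT, a ratio of 3.03 (log2 fold change 1.56, standard error 0.22, adjusted p = 9.5e-04). Gyg, glycogenin, the protein primer on which glycogen is built, gave 2124 and 1864 against 892 and 862, a ratio of 2.27 (adjusted p = 0.0024). The arrays of both genes lay far apart.

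Pgm1, a phosphoglucomutase that links glucose 6-phosphate to glucose 1-phosphate, gave 4064 and 4091 in FSP27-deficient WAT, against 2536 and 2104 in wild-type WAT (ratio 1.76, adjusted p = 0.011, and 0.14 without wild-type replicate 2). Ppp1r3c, a glycogen-targeting subunit of protein phosphatase 1 that favours synthesis, gave 882 and 1151 against 599 and 490.1. Its ratio was 1.87 (adjusted p = 0.026), and the call was lost without FSP27-deficient replicate 2 (adjusted p = 0.098), wild-type replicate 1 (0.08) or wild-type replicate 2 (0.21).

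**Figure D4:**
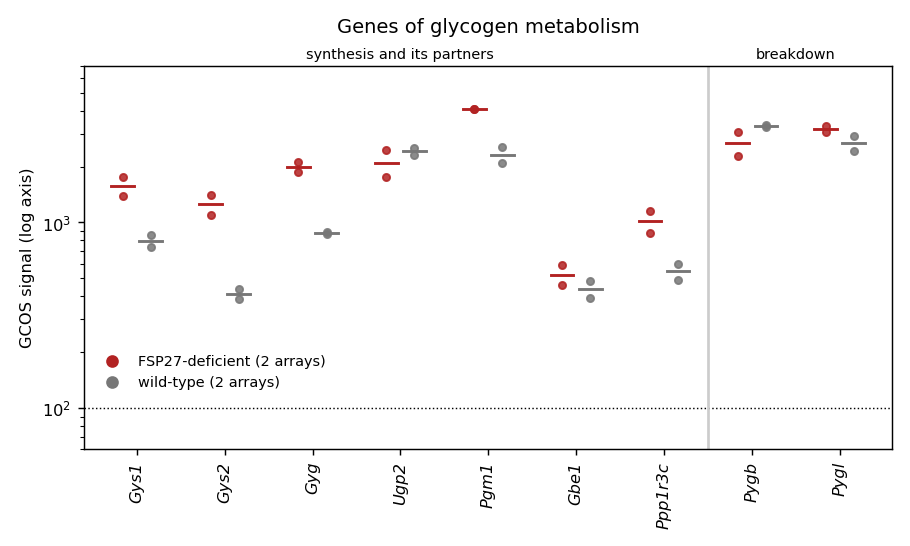
Log axis of GCOS signal for 9 genes of glycogen metabolism, with each array as a point and the mean of 2 arrays as a bar, FSP27-deficient left of wild-type. Gys1, Gys2, Gyg, Pgm1 and Ppp1r3c lie higher in FSP27-deficient WAT and were called. Gbe1 and the brightest Ugp2 probe set overlap, and the phosphorylase genes Pygb and Pygl were not called. Gys2, Gyg, Pgm1 and Ppp1r3c are shown because they were called, and the 9 tested partners that were not called are left out.

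In the pentose phosphate pathway 1 of 3 genes tested was called. Taldo1, transaldolase, which belongs to the non-oxidative branch, had close FSP27-deficient arrays at 10367 and 10424, against 4924 and 6664 on the wild-type arrays. The ratio was 1.79 (log2 fold change 0.86, standard error 0.18, adjusted p = 0.0082, or 0.15 with wild-type replicate 1 left out). Tkt, transketolase of the same branch, gave 12311 and 17067 against 13240.0 and 18494. The duplicates of Tkt differed more than the genotypes did (adjusted p = 0.79).

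Pgd, 6-phosphogluconate dehydrogenase, makes NADPH in the oxidative branch. It gave 11804 and 10657 in FSP27-deficient WAT, against 8447 and 8396 in wild-type WAT, apart but not called (log2 fold change 0.41, standard error 0.15, adjusted p = 0.11). Its 4 probe sets ranged from -0.10 to 0.52. Of 9 partners of the pathway 7 were tested, with 1 called higher and 1 lower, against 5.78% and 6.51% of all genes tested. Rpe, ribulose-phosphate epimerase, was called higher with 1966 and 1548 against 1038 and 1115 (adjusted p = 0.044). That call was lost without FSP27-deficient replicate 1, wild-type replicate 1 or wild-type replicate 2 (log2 fold changes 0.52, 0.64 and 0.74). It was also lost with no filter (adjusted p = 0.054), median centring (0.058), every probe set on its own (0.051) and probe sets averaged (0.12). The call held with pseudocounts of 1 or 64, a filter of 200, quantile normalization and the replicate block. A dimmer Rpe probe set gave 1038 and 763 against 774 and 673, and its groups overlapped. The dimmest gave 11.4 and 3.15 against 41.8 and 23.6, too low for a test. H6pd, the hexose-6-phosphate dehydrogenase of the endoplasmic reticulum, was called lower with 2231 and 2336 against 3607 and 4384 (log2 fold change -0.80, adjusted p = 0.012). The H6pd call was lost without wild-type replicate 2 (log2 fold change -0.66) and with median centring (limma adjusted p = 0.071).

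Isoforms of 1 family were compared by their log2 ratio within each array, which cancels a difference in scale between arrays. All pairs of tested members within a family were taken, 13 in all. The level of such a ratio also depends on the probes, so only its difference between genotypes is given, with the more increased isoform on top, which fixes its sign. The arrays of the genotypes lay apart for 10 pairs and overlapped for 3. No such share was taken over all pairs of genes. As single genes, 22.7% of all genes tested lay apart as higher and 31.4% as lower. Pairs of a family share genes, so that the 13 pairs are not separate results. Each of the 10 pairs had the smallest p that these arrays can give (exact two-sided permutation p = 0.333, adjusted over the pairs 0.433), so that no pair can be called.

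Among hexokinases the ratio of Hk2 to Hk1 was 1.13 higher on the log2 scale in FSP27-deficient WAT, with array values of 2.83 and 3.26, against 1.56 and 2.27 in wild-type WAT. The arrays did not overlap. Among phosphofructokinases the ratio of Pfkl to Pfkp was 0.70 higher, with 1.20 and 1.07 against 0.38 and 0.50, and duplicates that agreed closely. Pfkl to Pfkm was 0.83 higher, with a wide spread of 2.64 and 1.61 against 1.25 and 1.35. Pfkp to Pfkm differed by 0.13 only and overlapped, with an SD of 0.63 between the FSP27-deficient arrays (exact permutation p = 1).

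Aldoa to Aldoc differed by 1.49, with Aldoc signals as low as 80.5. Ldha to Ldhb differed by 0.59 with overlapping arrays (4.18 and 3.19 against 2.68 and 3.50, exact permutation p = 0.667), and by 0.23 when probe sets were averaged per gene. The ratio of Slc2a4 to each other carrier was higher in FSP27-deficient WAT, by 1.10 for Slc2a1, 1.47 for Slc2a3 and 0.86 for Slc2a8. For Slc2a8 the array values were 2.27 and 2.42 in FSP27-deficient WAT, against 1.26 and 1.70 in wild-type WAT. When probe sets were averaged per gene these 3 differences were 0.70, 0.87 and 0.79. The pairs among Slc2a1, Slc2a3 and Slc2a8 differed by 0.24 to 0.61, and these were at most 0.16 after that averaging, where Slc2a8 to Slc2a1 became -0.09. Pygl to Pygb was 0.58 higher, with 0.44 and 0.09 against -0.19 and -0.43.

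**Figure D5:**
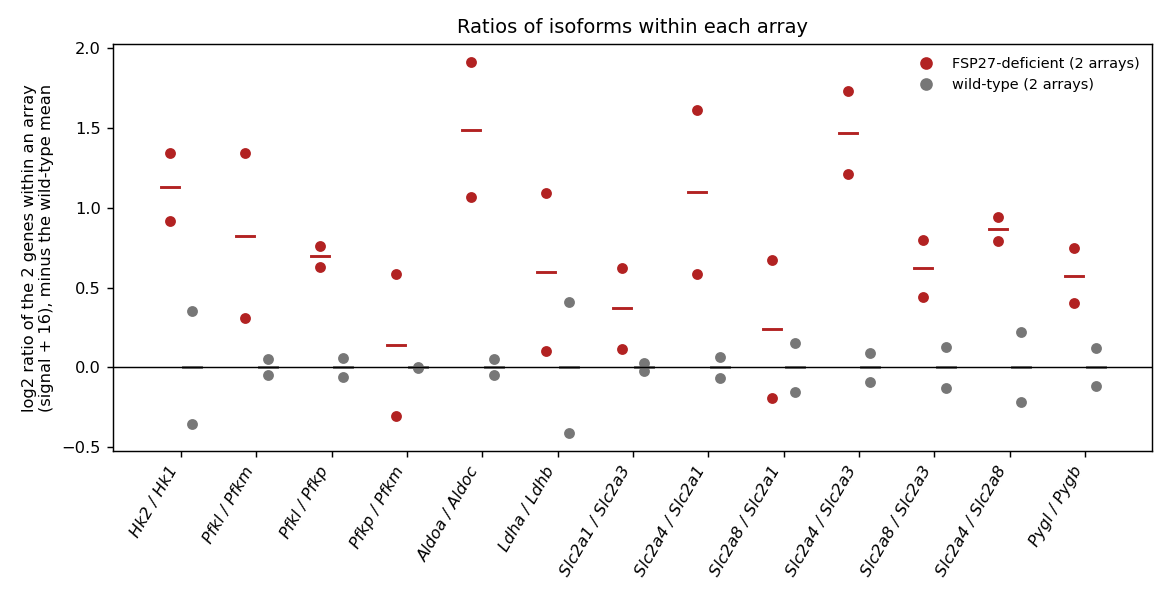
log2 ratio of the signals (+ 16) of 2 isoforms within each array, minus the wild-type mean of that pair, for 13 pairs, with arrays as points and means of 2 arrays as bars, FSP27-deficient left of wild-type. The FSP27-deficient arrays lie above both wild-type arrays for 10 pairs, by means of 0.37 to 1.49, and overlap them for Pfkp to Pfkm, Ldha to Ldhb and Slc2a8 to Slc2a1. Pairs that share a gene are not separate results.

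Of 103 other genes of sugar metabolism and its control, in 8 lists, 80 were named here and 65 tested. Of these 10 were called higher, where 5.78% of all genes tested were, and 3 lower, where 6.51% were, with a median log2 fold change of 0.13. Gpd1, glycerol-3-phosphate dehydrogenase, which draws the glycerol backbone of triglyceride from the triose phosphates, gave 16881 and 13472 in FSP27-deficient WAT, against 7192 and 6756 in wild-type WAT (ratio 2.18, log2 fold change 1.11, adjusted p = 0.0012). Mpc1, a subunit of the mitochondrial pyruvate carrier, gave 9762 and 10669.8 against 6061 and 5528 (ratio 1.76, adjusted p = 0.0057, and 0.079 without wild-type replicate 2). Both genes lie just beside the lower part of glycolysis, 1 at the triose phosphates and 1 at pyruvate.

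Pcx, pyruvate carboxylase, gave 12195 and 11532 in FSP27-deficient WAT, against 6715 and 6097 in wild-type WAT (ratio 1.85, adjusted p = 0.0032). Psat1, the aminotransferase of the serine branch that starts from 3-phosphoglycerate, gave 4126 and 4452 against 2553 and 2430.0 (ratio 1.72, adjusted p = 0.011). The Psat1 call was lost without wild-type replicate 1 (adjusted p = 0.078) or wild-type replicate 2 (0.1). Of 15 other glycolytic isozymes and regulators, 9 were named, 4 tested and 0 called by limma.

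Of 13 transcription factor genes and targets 1 was called higher and 1 lower, and of 8 GLUT4 vesicle genes 0 higher and 1 lower, against 5.78% higher and 6.51% lower of all genes tested. Stxbp3, a syntaxin-binding protein of GLUT4 vesicle fusion, gave 263 and 303 in FSP27-deficient WAT, against 850.4 and 706 in wild-type WAT. This was 2.75-fold lower (log2 fold change -1.41, adjusted p = 0.0027), and the call was lost without wild-type replicate 1 (log2 fold change -1.28). A second, dimmer Stxbp3 probe set gave 58.3 and 118 against 114 and 62.4, with overlapping arrays. With both probe sets averaged the adjusted p was 0.015. Txnip, an arrestin-like protein that restrains glucose uptake, gave 4046 and 6093 against 9773 and 11737, 2.12-fold lower (adjusted p = 0.0041). Mlx, the partner of the carbohydrate response factors, gave 468 and 876 against 228 and 349 (ratio 2.33, log2 fold change 1.14, adjusted p = 0.036). Its call was lost without FSP27-deficient replicate 2 (log2 fold change 0.70) or wild-type replicate 1 (0.85). The Mlx call was also lost with no filter (limma adjusted p = 0.1). Txnip stands in the transcription factor list as a target and not as a factor.

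Skeletal muscle, a tissue rich in glycolytic transcripts, was checked with 15 markers. Summed, they gave 3913 and 2958 in FSP27-deficient WAT, against 2578 and 2232 in wild-type WAT. Of the 15 markers 10 had a mean signal under 100. Among these Myh1 (138 and 66.3 against 28.3 and 10.6) and Ckm (137 and 136 against 25.9 and 68.2) lay apart as higher. The arrays of Myh2, Myh4, Tnnt3, Tnnc2 and Mylpf overlapped. Of 5 markers tested 3 lay apart as higher, Myl1, Atp2a1 (ratio 1.51) and Myoz1 (1.72), and 1 as lower. Of all genes tested 22.7% and 31.4% did so. The median log2 fold change of the 5 was 0.53. Myl1, a myosin light chain, alone was called, with 2220.2 and 1525 against 1049 and 971, the highest signals of these markers on every array. The next brightest, Acta1, skeletal actin, ran the other way with 502 and 269 against 702 and 633, apart and past the fold criterion as lower but not called (log2 fold change -0.83, adjusted p = 0.087). The Myl1 call was lost without FSP27-deficient replicate 1 (adjusted p = 0.11), wild-type replicate 1 (0.1) or wild-type replicate 2 (0.15), and its part in the glycolytic signals was not tested. The muscle isoform genes Pgam2, Pygm and Eno3 gave signals between 3.4 and 132 on all 4 arrays.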

How the data were processed

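Gonadal WAT of both genotypes was measured on 4 Affymetrix arrays. The deposited values are linear intensities, which the authors obtained with the GeneChip Operating Software (GCOS). Neither its version nor its scaling target is stated in the sources used here. The platform annotation gives 1 symbol to 20393 of 22690 probe sets, several to 691 and none to 1606. Where a gene had several probe sets, the brightest on average stood for it. Genes that averaged 100 or more were tested on log2(signal + 16), FSP27-deficient minus wild-type (R 4.3.3, limma 3.58.1, eBayes with a trend, Benjamini-Hochberg over 8523 genes, threshold 0.05). The fit has 12.1 degrees of freedom in all, prior included. Adding 16 understates the change of dim genes. The median signal was 181 and 165 for the FSP27-deficient pool and 193 and 172 for the wild-type pool. Between duplicates the log2 difference had an SD of 0.636 in FSP27-deficient and 0.463 in wild-type WAT, and the small number of arrays limits the precision.

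The members and all gene lists were chosen with earlier results of these data known. Every member was named, with Cidec as the targeted gene and, from each other pathway list, its called genes, up to the 4 with the largest change. Cell type marker lists are given by their sums and counts, and the markers named were chosen after their values were seen. The code was tested on simulated data. Settings changed in turn were the pseudocount (1 or 64), the filter (none, or 200), the scaling (quantile, or median centring), the probe sets (each alone, averaged, or the highest on each array), the trend, the methods' t-test, a replicate block, a fold passed by both duplicates, and each array left out, where the lone array is taken to vary as the other genotype's do. Choosing the brightest probe set of a kind meant for 1 gene was added after seeing the data. Promoter windows are RefSeq's (GRCm38.p6).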

Additional observations from a re-analysis of the deposited data

How the results depend on the processing

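In the main fit 493 of all 8523 genes tested were called higher, against 389 of 12394 with no filter and 450 of 8528 with centring. With no trend 1 of all 8523 genes was called higher, and by the methods' t-test 0. With every probe set on its own 669 of all 13225 were called higher. The count of 11 genes called higher of 29 was 7 with no filter on low signals and 7 with each array centred on its median, 0 with no trend and 0 by the methods' t-test, of 14 and 9 with an unadjusted p under 0.05, and 19 of 58 with every probe set on its own. It ranged from 3 to 12 with 1 array left out, with 3 without wild-type replicate 1 and 5 without wild-type replicate 2. The 3 genes called without wild-type replicate 1 were Pfkl, Aldoa and Pgam1. No filter and centring both kept Pfkl, Aldoa, Pgam1, Pfkfb3, Gys1 and Taldo1. The count of 0 called lower was 1, Hk1, with probe sets averaged per gene, with the brightest probe set taken on each array and with the replicate block. The fold criterion gave 12 higher and 2 lower, against 25 and 5 with every probe set on its own, and 1 lower with probe sets averaged per gene or without probe sets that can bind several genes. The median log2 fold change of the 29 genes, 0.34, was 0.41 with a mean signal of at least 200, 0.42 with centring, 0.43 with every probe set on its own, and 0.38 to 0.42 with 1 array left out. With every probe set on its own the median was 0.05 for glucose transporters and -0.18 for glycogen enzymes, which turns both signs. With 1 array left out, log2 fold changes ranged from -0.38 to 0.07 for Eno3 and -0.46 to 0.02 for Ugp2, both turned without FSP27-deficient replicate 1, from -0.35 to 0.13 for Tkt, turned without FSP27-deficient replicate 1 or wild-type replicate 2, and from -0.51 to 0.55 for Ldhb, which was -0.51 without FSP27-deficient replicate 2 and -0.34 without wild-type replicate 2. The cause of these changes was not tested. The duplicates share only a number (correlation of same-numbered deviations 0.0651 over the genes tested), and the replicate block gave 12 higher and 1 lower, adding Slc2a4 (adjusted p = 0.021) and Hk1 (0.026). Quantile normalization and centring moved the median of all genes to -0.02 and -0.01. Signals near 100, as for Aldoc and Eno3, limit what these arrays can show.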
